A study of Pinus pinaster with 14 samples.

Results

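Emerging needles of maritime pine (Pinus pinaster) were compared with the apical meristem, the earlier stage of the shoot tip, and with the mesophyll and vascular tissue of young needles. These 4 libraries were chosen by their tissue labels from the 14 libraries of the series and form a leaf series from meristem through emerging needle to young needle. All seedlings were of the Oria provenance, were grown in soil in a culture chamber, and were harvested 1 month after the shoot emerged. No treatment or genotype separated the groups. Each tissue was cut out of frozen sections by laser microdissection, its RNA was amplified as cDNA, and the cDNA was sequenced by 454 pyrosequencing as 1 library per tissue. The labels name mesophyll and vascular tissue for young needles and give no such division for emerging needles. They do not say how many seedlings went into a library.

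The apical meristem is the dome of dividing cells that forms the leaves of the shoot. A conifer needle starts as a bulge on its flank, grows mainly by cell division, and then differentiates into photosynthetic mesophyll around a central vascular strand of xylem and phloem. A developing leaf is therefore known to pass from a dividing to a differentiated state, with different programmes in its mesophyll and its veins. The deposited transcript identifiers are not paired with gene names or sequences in the sources used here. Individual transcripts are accordingly given by identifier without a function, and the labelled tissues could not be checked against marker genes.

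Values are normalised read counts, the deposited signal, in which 1 read was worth 1.33 in the apical meristem, 0.709 in emerging needles, 1.47 in young needle mesophyll and 0.766 in young needle vascular tissue. With 1 library per tissue there was no replicate spread and no test between tissues. A transcript was called different when its value + 5 was at least 4 times higher or lower, which is a rule of size. A call against a library without reads needed a value of 15, or 22 reads in emerging needles. Intervals of ratios are exact 95% intervals from the reads and cover counting error only. In tissue samples, fewer cells of a type and less RNA per cell cannot be told apart.

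The 4 libraries held 1051246 reads in the apical meristem, 824945 in emerging needles, 811037 in young needle mesophyll and 850625 in young needle vascular tissue. Reads fell on 18193 transcripts in the apical meristem, 14916 in emerging needles, 8635 in mesophyll and 11913 in vascular tissue. At 500000 reads drawn from each library these numbers were 16069, 14259, 8030 and 11269, in the same order. Reads were spread unevenly in some of them, as 50% of reads lay in 184 transcripts of the apical meristem and 274 of mesophyll, against 1152 of emerging needles and 1084 of young needle vascular tissue.

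Some libraries held reads of every abundant transcript of another library, and the apical meristem was one of them. All 237 transcripts with at least 200 reads in hypocotyl cortex also had reads in the apical meristem, with at least 0.0668 apical meristem reads for each hypocotyl cortex read, and so had all 203 such transcripts of root cortex. In emerging needles 33 of the 237 and 33 of the 203 had no reads. The apical meristem correlated at 0.561 with the root meristem, 0.539 with root cortex and 0.513 with hypocotyl cortex, all above its 0.447 with emerging needles (Spearman, across 22977 transcripts, which are not independent replicates). Of 878 such transcripts of young needle vascular tissue, 0 lacked reads in hypocotyl vascular tissue, where each had at least 0.146 reads per young needle read. Of 741 of cotyledon mesophyll, 0 lacked reads in hypocotyl pith, with at least 0.158. In these pairs the young needle and cotyledon libraries are the ones whose transcripts are all present in the other, whereas the apical meristem is the library that holds those of cortex. Among the 4 leaf libraries no pair was of this kind: of 712 transcripts with at least 200 reads in emerging needles, 7 lacked reads in the apical meristem, 43 in young needle vascular tissue and 111 in mesophyll.

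The most abundant transcripts show how the leaf libraries differ. In emerging needles unigene21427 ranked first with 7662 reads, 0.929% of the library (95% Wilson interval 0.9083 to 0.9497%). Its value was 5430 there, 1524 in the apical meristem, 351 in mesophyll and 1935 in young needle vascular tissue. Among the 10 other libraries it came closest to the emerging needle value in the root meristem, at 4528. The next in rank, isotig77975, was spread more evenly, at 4654 in emerging needles, 5651 in the apical meristem, 16316 in mesophyll and 3318 in young needle vascular tissue.

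The leading transcripts of the neighbouring stages had lower values in emerging needles, by very different amounts. In the apical meristem unigene208496 held 4.03% of reads (95% Wilson interval 3.997 to 4.072%) and isotig52264 held 3.66% (3.63 to 3.70%). In emerging needles their shares were 0.343% (0.331 to 0.356%) and 0.0185% (0.0158 to 0.0217%), close to their shares in young needle vascular tissue of 0.341% and 0.0192%. Their shares in mesophyll were higher, at 2.02% and 0.0811%. Outside the leaf series both were highest in root cortex, at 31.0% and 7.16% of reads. They held 14.9% and 3.58% of root vascular reads and 11.2% and 4.02% of hypocotyl cortex reads. In young needle mesophyll isotig01574 led with 2.56% of reads (2.53 to 2.60%), and its value of 30533 was 135 times that in emerging needles (121 to 151), where it stood at 226. It was also low in the apical meristem, at 452, and high in both cotyledon libraries, at 21463 in mesophyll and 25206 in vascular tissue. In young needle vascular tissue isotig00218 led with 5405 and isotig01047 followed with 5188. isotig00218 was 11.01 times lower in emerging needles (10.18 to 11.92), whereas isotig01047 was 1.78 times lower (1.72 to 1.86).

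Of 16541 transcripts, 10369 differed at least 4-fold between emerging needles and at least 1 young needle tissue, and those that differed from both tissues in the same direction were mostly higher in emerging needles. Of 13964 transcripts with a value of at least 10 in one of these libraries, 2543 (18.2%) were at least 4-fold higher in emerging needles than in both young needle tissues, and 321 (2.30%) were at least 4-fold lower than in both. The higher ones exceeded the nearer young needle tissue by a median of 2.61 on the log2(value + 5) scale (quartiles 2.27 and 3.16), and 157 of them by at least 16-fold. The lower ones fell short by a median of 2.55 (quartiles 2.24 and 3.07). Of the 2543, 1782 (70.1%) had no reads in either young needle library, which the choice favours; of all 16541 transcripts that reached 10 in any of the 4 leaf libraries, 21.7% had none in either and 51.9% had none in mesophyll. The part of this low detection in mesophyll was not tested. Their median was 44 reads in emerging needles, and 2285 had at least 25. A test with edgeR's quasi-likelihood model took the young needle tissues as if they were replicates. It cannot decide which transcripts differ, because its spread is the difference between these tissues. Between them 7425 of 16541 transcripts differed at least 4-fold.

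The imbalance was smaller against each young needle tissue or their mean, with the higher transcripts still the more numerous. Against mesophyll alone 4986 transcripts were higher (43.5% of 11456) and 2643 lower (23.1%) in emerging needles. Against young needle vascular tissue alone 3284 were higher (27.2% of 12070) and 2572 lower (21.3%). Against the mean of both young needle tissues 3506 were higher and 1496 lower. These comparisons share the emerging needle library. The young needle tissues also differed from each other, with 2696 transcripts higher in mesophyll (25.7% of 10500) and 4729 higher in vascular tissue (45.0%).

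**Figure D1:**
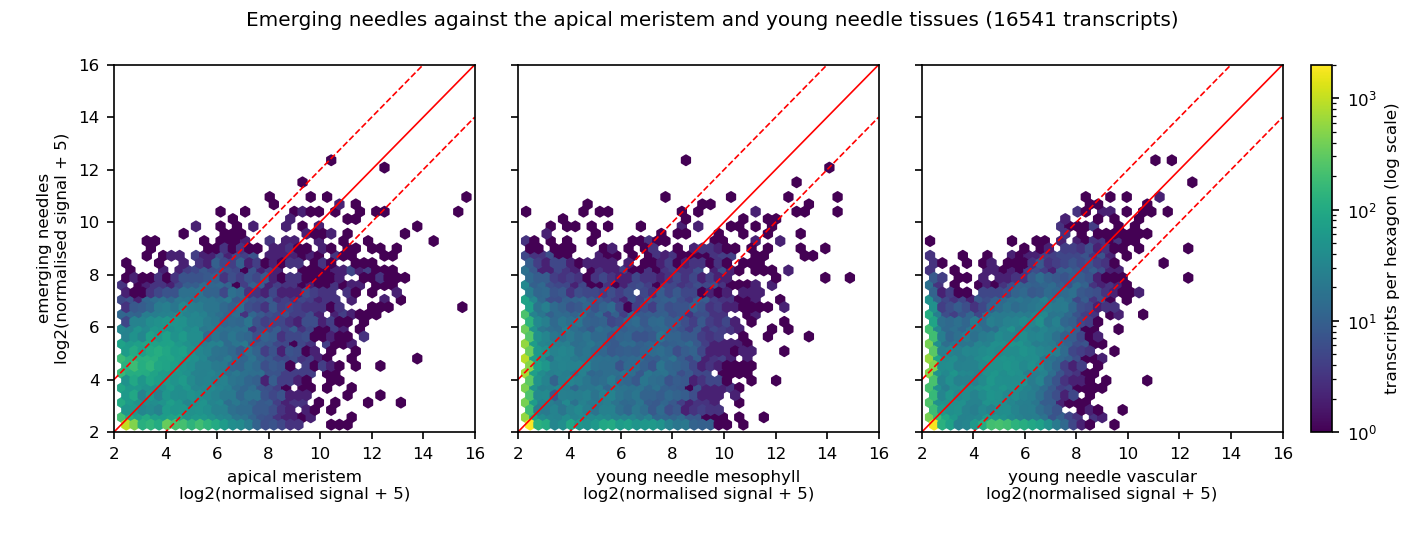
Each hexagon counts transcripts by their log2(normalised signal + 5) in emerging needles (vertical axis) and in the apical meristem or a young needle tissue (horizontal axis), with the solid line at equality and dashed lines at 4-fold. Transcripts without reads in a young needle library form the column at the left edge, from which many of the 4986 and 3284 transcripts higher in emerging needles come.

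isotig08844 had the largest difference above both young needle tissues. Its value was 620.8 in emerging needles and 67.8 in the apical meristem, and it had no reads in mesophyll or young needle vascular tissue. With 3 reads per library as the limit it was at least 141-fold higher than in mesophyll and at least 270-fold higher than in vascular tissue. Outside the leaf series it reached 56.4 in cotyledon mesophyll and 17.3 in the hypocotyl pith, and none of the 5 root libraries held a read of it.

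isotig12605 stood at 454.9 in emerging needles, 14.6 in the apical meristem and 1.47 in mesophyll, where it had 1 read, and it had no reads in young needle vascular tissue. The emerging needle value was 31.1 times that of the apical meristem (17.3 to 62.7) and 310 times that of mesophyll (55.4 to 12262), and at least 198-fold higher than in vascular tissue. Both transcripts were thus highest in emerging needles, lower in the apical meristem and at or near 0 in young needles.

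In the opposite direction, isotig13260 stood at 296.5 in mesophyll and 368.6 in young needle vascular tissue, had 1 read in emerging needles (0.709), and had none in the apical meristem. The ratios to emerging needles were 418 for mesophyll (74.2 to 16606) and 520 for vascular tissue (92.9 to 20590). It was present in cotyledon vascular tissue at 149.9 and hypocotyl vascular tissue at 140.7, and was without reads in all 5 root libraries. isotig32932 stood at 391.9 in mesophyll and 253.7 in young needle vascular tissue, with 1 read in emerging needles and 15.9 in the apical meristem. Unlike isotig13260 it was present throughout the root, from 181.9 in the root meristem to 5387 in root vascular tissue.

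As a share of reads, the 2543 transcripts above both young needle tissues made up 21.3% of emerging needle reads (95% Wilson interval 21.2 to 21.3%) and 7.09% of apical meristem reads (7.04 to 7.13%). They made up 0.185% of mesophyll reads and 0.706% of young needle vascular reads, low values that follow from how they were chosen. In the 10 libraries that had no part in the choice, the share was highest in the root meristem, at 10.7% (10.6 to 10.7%), followed by developing root vascular tissue at 7.35% (7.29 to 7.41%) and developing root cortex at 7.27% (7.202 to 7.342%). It was lowest in hypocotyl cortex, at 1.17% (1.14 to 1.20%). The 321 transcripts below both young needle tissues made up 0.802% of emerging needle reads (0.783 to 0.821%). Outside the leaf series their share was highest in hypocotyl vascular tissue at 12.4% (12.4 to 12.5%), cotyledon vascular tissue at 10.94% (10.88 to 11.01%) and cotyledon mesophyll at 9.543% (9.482 to 9.605%), and it was lowest in the root meristem, at 1.24% (1.22 to 1.26%). The hypocotyl vascular value goes with the shared presence of young needle vascular transcripts in that library, whose part in it was not tested.

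The growing root tip and the cotyledons, which were not used to choose these transcripts, were compared through the mean log2 value of root meristem and developing root cortex and vascular tissue minus that of the cotyledon libraries. Over all 16541 transcripts the median of this difference was 0.15, with 12.4% at least 4-fold higher in the root tip and 8.03% at least 4-fold higher in cotyledons. Among the 2543 the median was 0.54, with 398 (15.7%) higher in the root tip and 91 (3.58%) higher in cotyledons. Among the 321 the median was -0.91, with 19 (5.92%) higher in the root tip and 111 (34.6%) higher in cotyledons. Within the 2543 the groups differed. Of the 1551 that were within 4-fold in the apical meristem, 298 (19.2%) were higher in the root tip and 50 (3.22%) in cotyledons, whereas of the 963 that were also above the apical meristem, 88 (9.14%) were higher in the root tip, below the share over all transcripts, and 41 (4.26%) in cotyledons. Of the 2219 above the apical meristem, 212 (9.55%) were higher in the root tip and 253 (11.4%) in cotyledons. Transcripts are not independent, and these shares describe single libraries.

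**Figure D2:**
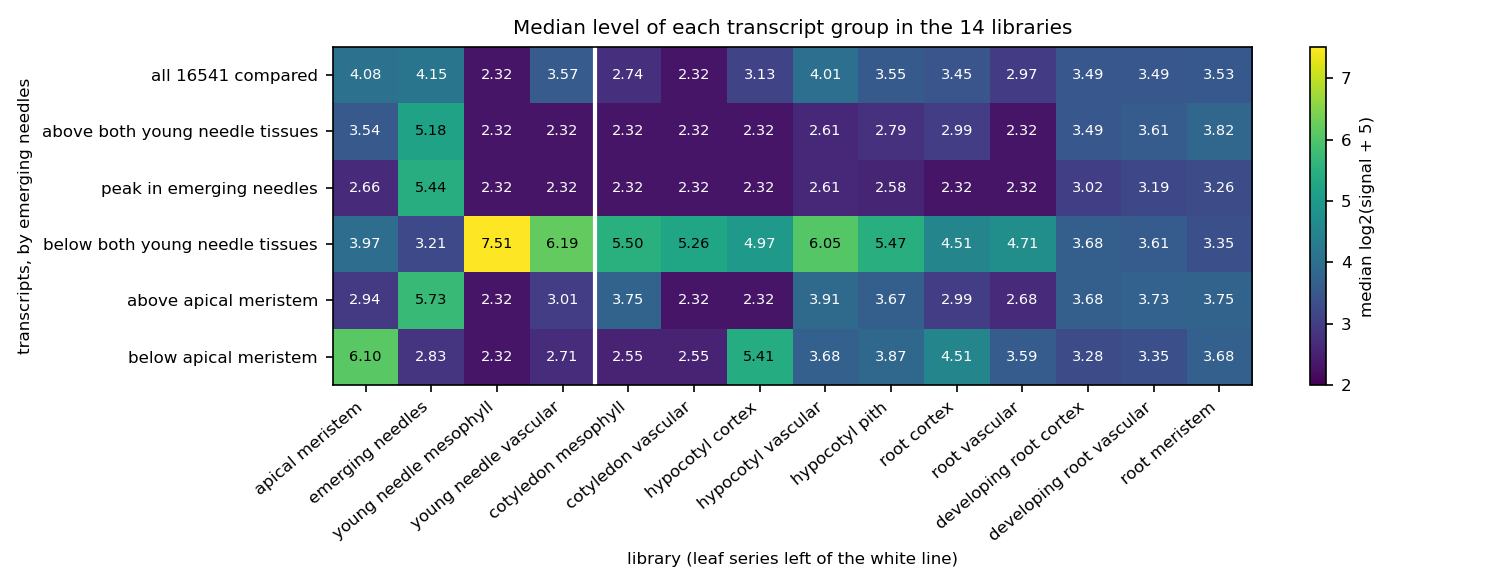
Median log2(normalised signal + 5) of 6 transcript groups (rows, defined by emerging needles against the young needle tissues and the apical meristem) in the 14 libraries (columns), where 2.32 is the value of a transcript without reads. Transcripts above both young needle tissues had their highest median outside the leaf series in the root meristem (3.82), and transcripts below the apical meristem in hypocotyl cortex (5.41).

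Against the apical meristem, 2219 of 12952 transcripts (17.1%) were higher and 3170 (24.5%) lower in emerging needles. Without the deposited normalisation factors, scaled to the library total alone, 4863 were higher and 2006 lower, and with quantile normalisation 2916 and 3057, so the balance of the directions turned with the scaling. The factors were 0.716 for the apical meristem and 1.71 for emerging needles, and leaving them out moved the median log2 difference over the 16541 transcripts from 0 to 0.73. The lower ones differed by more, with a median of 2.98 and 579 transcripts at 16-fold or more, against 2.49 and 69 for the higher ones.

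The transcripts lower in emerging needles held most of the apical meristem reads, 74.6% (95% Wilson interval 74.6 to 74.7%), and 9.595% of emerging needle reads (9.532 to 9.659%). Outside the leaf series they held 77.5% of root cortex reads (77.4 to 77.6%) and 73.1% of hypocotyl cortex reads (73.0 to 73.2%), against 36.4% in the root meristem (36.3 to 36.5%). Of the 3170, 1238 (39.1%) were at least 4-fold higher in hypocotyl cortex than in the root meristem and 428 (13.5%) at least 4-fold lower, where 17.1% and 17.6% of all 16541 were. With a share of hypocotyl cortex reads taken off the apical meristem, at the 5th percentile of their ratio, 2943 were lower and 2313 higher in emerging needles. Root cortex reads were not taken off.

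unigene36327 had the largest difference below the apical meristem. It stood at 8300 in the apical meristem, 3.54 in emerging needles (5 reads), 14.7 in mesophyll and 0.766 in young needle vascular tissue (1 read). The apical meristem value was 2343 times that of emerging needles (1003 to 7217). It was as abundant in cortex, at 8095 in the hypocotyl and 8721 in the root, and stood at 21.5 in the root meristem. unigene13282 stood at 13805 in the apical meristem and 23.4 in emerging needles, a ratio of 590 (420 to 858), with 89.5 in mesophyll and 26.1 in young needle vascular tissue. It too was high in hypocotyl cortex, at 11601, and root cortex, at 6036, and it was at 1817 in the root meristem. Both were thus low in all 3 needle libraries and high in the apical meristem, hypocotyl cortex and root cortex. In developing root cortex unigene36327 stood at 31.2 and unigene13282 at 1655. They were also present in the pith, at 1886 and 1417, and in root vascular tissue, at 1337 and 1006.

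Among transcripts higher in emerging needles than in the apical meristem, isotig44076 stood at 347.2 in emerging needles and 798.4 in mesophyll, with no reads in the apical meristem or young needle vascular tissue. It was at least 87.1-fold higher than in the apical meristem. In the 10 other libraries it had 1 read in cotyledon mesophyll and 1 in the pith, so it was nearly limited to emerging needles and needle mesophyll in these libraries. isotig27624 stood at 660.4 in emerging needles, 5.32 in the apical meristem, 8.81 in mesophyll and 1261.5 in young needle vascular tissue. Its ratio to the apical meristem was 124 (48.4 to 457), and outside the leaf series it was highest in developing root cortex at 485.5, hypocotyl vascular tissue at 454.3 and developing root vascular tissue at 450.4. These transcripts were shared with different tissues of the young needle, the first with mesophyll and the second with vascular tissue.

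Across the whole series from meristem to young needle, few transcripts differed in the same direction at both steps. Of 16541 transcripts, 29 (0.175%) were at least 4-fold lower at each step and 5 (0.0302%) at least 4-fold higher at each step, where the second step had to hold in both young needle tissues. A peak in emerging needles, above the apical meristem and both young needle tissues, was found for 963 (5.82%), and a trough for 74 (0.447%). A further 1551 (9.38%) were within 4-fold between apical meristem and emerging needles and lower in both young needle tissues, and 242 (1.46%) were within 4-fold and then higher in both. From the apical meristem, 2250 (13.6%) were lower in emerging needles and then within 4-fold in both young needle tissues, and 253 (1.53%) were higher and then within 4-fold. Within 4-fold at every step were 3669 (22.2%), and the rest differed between emerging needles and the young needle tissues in 1 of the tissues or in opposite directions. Without the deposited factors there were 2229 peaks and 43 troughs, and with quantile normalisation 796 were level and then lower. Both steps share the single emerging needle library. A deviation of that library alone would count towards peaks or troughs and not towards stepwise changes, and its part was not tested.

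**Figure D3:**
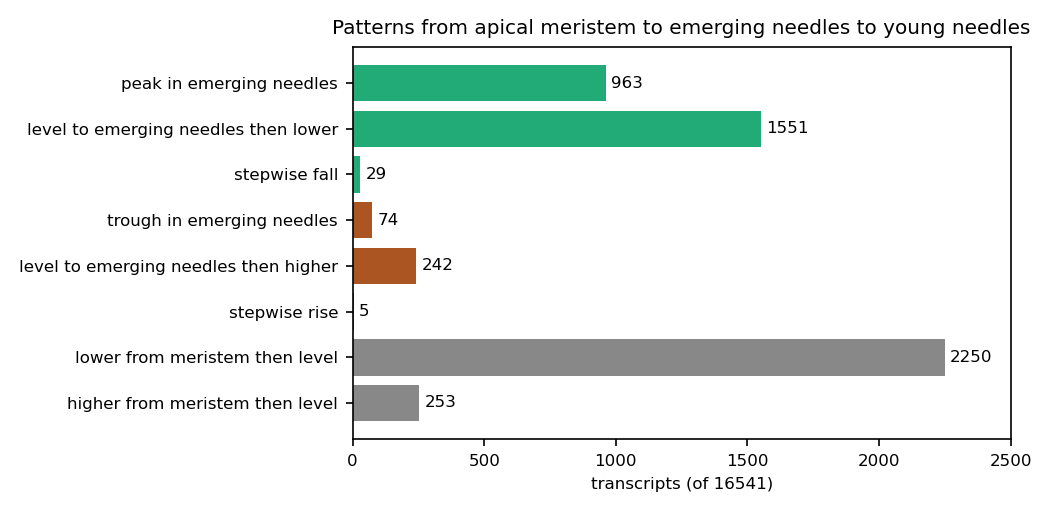
Number of transcripts (horizontal axis, of 16541) with each pattern from apical meristem to emerging needles to both young needle tissues, at a 4-fold rule on value + 5, where green bars are higher in emerging needles than in both young needle tissues, brown bars lower than in both, and grey bars within 4-fold of both. The 963 peaks and the 1551 transcripts that were level and then lower far outnumber the 29 stepwise falls, and the 5 stepwise rises are the fewest.

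The 963 peak transcripts made up 9.49% of emerging needle reads (95% Wilson interval 9.42 to 9.55%), and 360 of them (37.4%) had no reads in the apical meristem, which the choice of low apical meristem values favours (13.6% of all 16541 had none). In the 10 libraries outside the leaf series 77 had no reads. For the other 886 the highest of those libraries was cotyledon mesophyll in 170 (19.2%), the root meristem in 146 (16.5%), developing root cortex in 110 (12.4%) and developing root vascular tissue in 94 (10.6%). Among the 16200 of all compared transcripts with reads in those libraries, these shares were 11.3%, 12.9%, 5.30% and 5.90%. Hypocotyl vascular tissue was the highest for 36 (4.06%), against 12.8% of all, and hypocotyl cortex for 46 (5.19%), against 14.45%. The choice of low values in the apical meristem and young needle vascular tissue favours these low numbers. Of transcripts with at least 200 reads in hypocotyl cortex, 0 of 237 lacked reads in the apical meristem. Of those in hypocotyl vascular tissue, 2 of 506 lacked reads in young needle vascular tissue. A total of 175 were also at least 4-fold above all 10, while 48 were at least 4-fold higher in another library than in emerging needles. For 740 of the 963 at least 1 library outside the leaf series was within 4-fold and none was 4-fold higher.

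isotig48608 had the clearest peak. It stood at 167.9 in emerging needles and had no reads in the apical meristem, mesophyll or young needle vascular tissue, being at least 42.1-fold, 38.1-fold and 73.0-fold higher than each. It was higher still in cotyledon vascular tissue, at 317.3, and reached 42.5 in root vascular tissue and 19.0 in hypocotyl vascular tissue. isotig44251 stood at 244.5 in emerging needles, with 2 reads in the apical meristem (2.66), 3 in mesophyll (4.40) and none in young needle vascular tissue. Its ratio was 91.97 to the apical meristem (25.3 to 762) and 55.5 to mesophyll (18.8 to 271), and it had no reads in the 10 other libraries. The first was thus shared with vascular libraries of the cotyledon, root and hypocotyl, and the second was found in the leaf series alone.

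Of the troughs, unigene20726 stood at 87.7 in the apical meristem, 617.9 in mesophyll and 134.9 in young needle vascular tissue, and had no reads in emerging needles. With 3 reads as the limit it was at least 41.3-fold, 291-fold and 63.4-fold lower there. The root meristem and both developing root libraries were likewise without reads of it, and it ran from 376.9 to 2037 in the other 7 libraries. unigene21032 stood at 131.6 in the apical meristem, 145.3 in mesophyll and 83.5 in young needle vascular tissue, and had 1 read in emerging needles. Its ratios to emerging needles were 186 (32.6 to 7407), 205 (36.0 to 8180) and 118 (20.7 to 4698). In the 10 other libraries it was present at 24.5 or more, so that emerging needles had the lowest value of the 14.

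Among the stepwise falls, unigene10730 stood at 1962 in the apical meristem and 67.3 in emerging needles, a ratio of 29.1 (23.7 to 36.2), and had no reads in young needles, at least 15.3-fold lower in mesophyll and at least 29.3-fold lower in vascular tissue. It was also high in the root meristem, at 447.8, and root cortex, at 355.2. isotig44027 stood at 384.1 in the apical meristem and 35.4 in emerging needles, a ratio of 10.8 (8.01 to 14.9), with no reads in young needles. Outside the leaf series it had reads in root cortex, at 106.6, and the root meristem, at 30.6, and in no other library. Of the 29 stepwise falls, 12 (41.4%) were at least 4-fold higher in the root tip than in cotyledons and 0 at least 4-fold lower, where 12.4% and 8.03% of all 16541 were.

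Among the stepwise rises, unigene6043 had no reads in the apical meristem and stood at 30.5 in emerging needles, 201.1 in mesophyll and 191.6 in young needle vascular tissue. Mesophyll exceeded emerging needles 6.60-fold (4.65 to 9.53) and vascular tissue exceeded them 6.29-fold (4.54 to 8.91). isotig52506 stood at 2.66 in the apical meristem (2 reads), 36.8 in emerging needles, 535.7 in mesophyll and 245.2 in young needle vascular tissue. It was high in cotyledon vascular tissue, at 388.3, and was absent from the 5 root libraries, whereas unigene6043 had reads in all 5 of them and none in cotyledons.

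**Figure D4:**
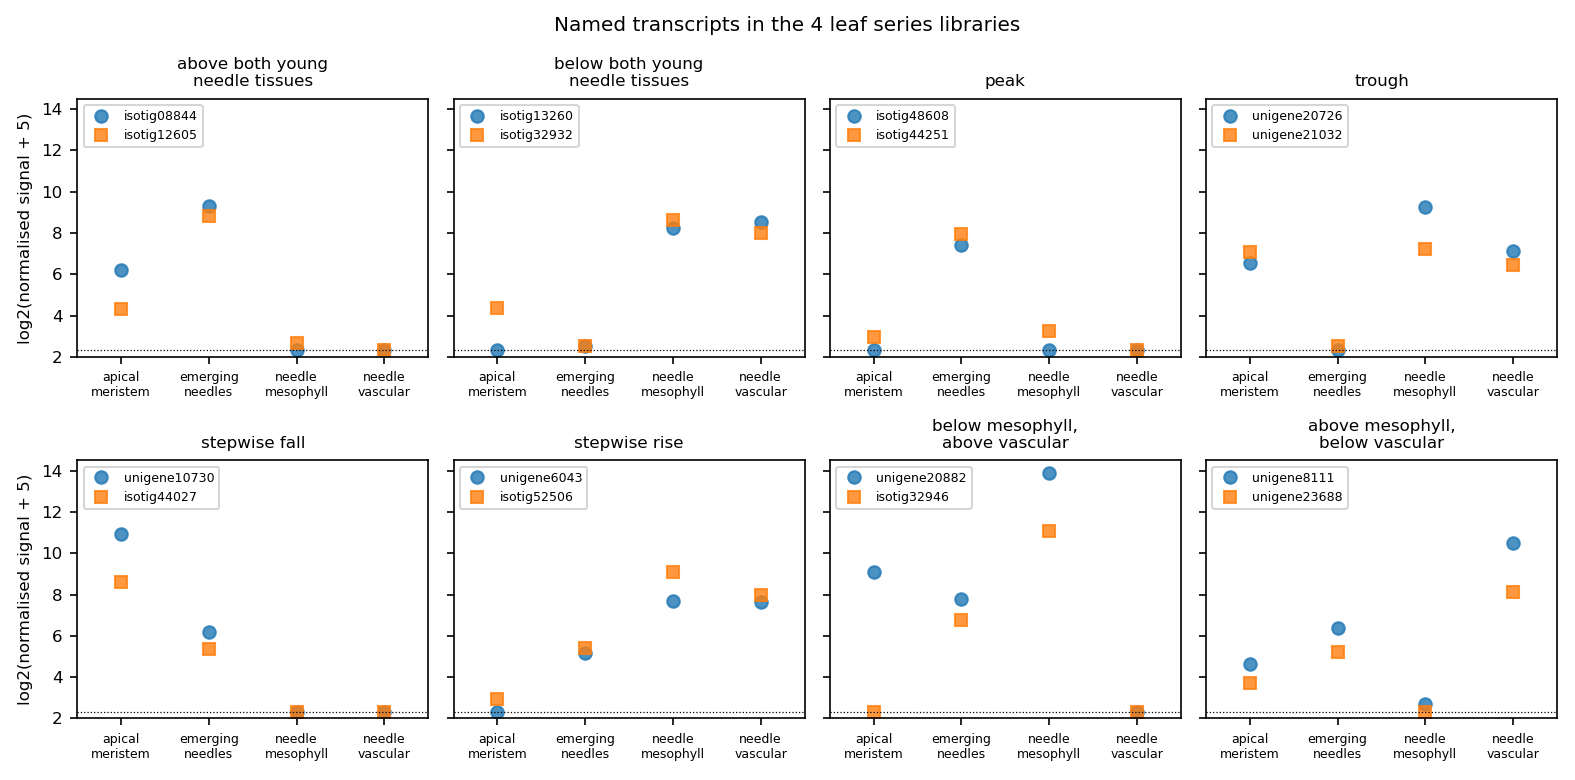
log2(normalised signal + 5) of the transcripts named by pattern (2 per panel, circle and square) in the apical meristem, emerging needles, young needle mesophyll and young needle vascular tissue, with the dotted line at the value of a transcript without reads. The emerging needle point is the highest in the peak panel and the lowest in the trough panel, and lies between the young needle tissues in the last 2 panels.

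Emerging needles stood differently towards the tissues of the young needle. Of the 2696 transcripts at least 4-fold higher in mesophyll than in vascular tissue, emerging needles were within 4-fold of vascular tissue and at least 4-fold below mesophyll for 1884 (69.9%), and within 4-fold of mesophyll and above vascular tissue for 285 (10.6%). Of the 4729 higher in vascular tissue, emerging needles kept to the low mesophyll level for 1994 (42.2%) and to the high vascular level for 1824 (38.6%). The apical meristem kept to the lower tissue for 62.8% and 50.1% and to the higher tissue for 15.7% and 24.7%. The mesophyll library had the fewest transcripts with reads, and its part in this contrast was not tested.

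A difference from 1 young needle tissue, within 4-fold of the other, was common. Emerging needles were above mesophyll only for 2342 transcripts (14.2% of 16541) and above vascular tissue only for 590 (3.57%). They were below mesophyll only for 2171 (13.1%) and below vascular tissue only for 2150 (13%). The cotyledon libraries, which had no part in this choice, gave a comparison of mesophyll with vascular tissue in another leaf. Over all 16541, 16.3% were at least 4-fold higher in cotyledon mesophyll and 9.37% higher in cotyledon vascular tissue. Among the 2171 these shares were 15.7% and 5.85%, and among the 2150 they were 11.1% and 14.3%. The 2150 were thus more often higher in the cotyledon vein than all transcripts were, and less often in cotyledon mesophyll. The 2171 were at the background in cotyledon mesophyll and less often higher in the cotyledon vein. Both sets were chosen against emerging needles. Of the 2150, 1994 were also at least 4-fold higher in young needle vascular tissue than in mesophyll, and 1884 of the 2171 at least 4-fold higher in mesophyll than in vascular tissue. Of the 2150, 0.140% had no reads in hypocotyl vascular tissue, against 20.4% of all, which goes with the shared presence described for that library.

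A small number went in opposite directions in the young needle tissues. In 151 transcripts (0.913%) emerging needles were at least 4-fold below mesophyll and at least 4-fold above vascular tissue, and in 101 (0.611%) they were above mesophyll and below vascular tissue. unigene20882 stood at 14943 in mesophyll, 217.5 in emerging needles and 534.3 in the apical meristem and had no reads in young needle vascular tissue. Mesophyll exceeded emerging needles 68.7-fold (61.3 to 77.2), and emerging needles were at least 94.6-fold above vascular tissue. isotig32946 stood at 2152 in mesophyll and 102.8 in emerging needles, a ratio of 20.9 (17.6 to 25.0), with no reads in the apical meristem or young needle vascular tissue. In the other direction, unigene8111 stood at 1438 in young needle vascular tissue, 79.4 in emerging needles and 1.47 in mesophyll (1 read), and unigene23688 at 275.9 and 31.9 with no reads in mesophyll. unigene8111 was also high in the hypocotyl, at 642.3 in pith and 627.4 in vascular tissue, with 340.1 in cotyledon vascular tissue and none in cotyledon mesophyll. unigene23688 was higher in cotyledon mesophyll, at 194.4, than in cotyledon vascular tissue, at 82.4, and reached 415.0 in root vascular tissue.

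Among all 13 other libraries, emerging needles differed least from the root meristem. Of 22977 transcripts 3173 (13.8%) were at least 4-fold different, 1862 higher (8.10%) and 1311 lower (5.71%) in emerging needles. Developing root vascular tissue followed with 3718 (16.2%), developing root cortex with 4003 (17.4%) and hypocotyl vascular tissue with 5147 (22.4%). The apical meristem was the fifth with 5389 (23.5%), just before cotyledon mesophyll with 5828 (25.4%). Young needle vascular tissue was the seventh with 5856 (25.5%), before root cortex with 5984 (26.0%), the pith with 6234 (27.1%) and cotyledon vascular tissue with 6924 (30.1%). Young needle mesophyll was the eleventh with 7629 (33.2%), and root vascular tissue with 7852 (34.2%) and hypocotyl cortex with 8057 (35.1%) differed most. In hypocotyl cortex the directions were even, with 4022 higher (17.5%) and 4035 lower (17.6%) in emerging needles. The root meristem ranked first under all alternative settings of scaling, filter, added value and fold that were tried, whereas the apical meristem moved between the fifth and the tenth place. By Spearman correlation across transcripts the order was the same, from 0.653 for the root meristem through 0.447 for the apical meristem, 0.432 for young needle vascular tissue and 0.305 for mesophyll to 0.124 for hypocotyl cortex. Across these 22977 transcripts the young needle libraries correlated with each other at 0.293, below the values of either with emerging needles. Across the 16541 transcripts of the leaf series they correlated at 0.146. There mesophyll correlated with emerging needles at 0.137 and young needle vascular tissue at 0.272, so the order for mesophyll turned with the transcripts used.

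**Figure D5:**
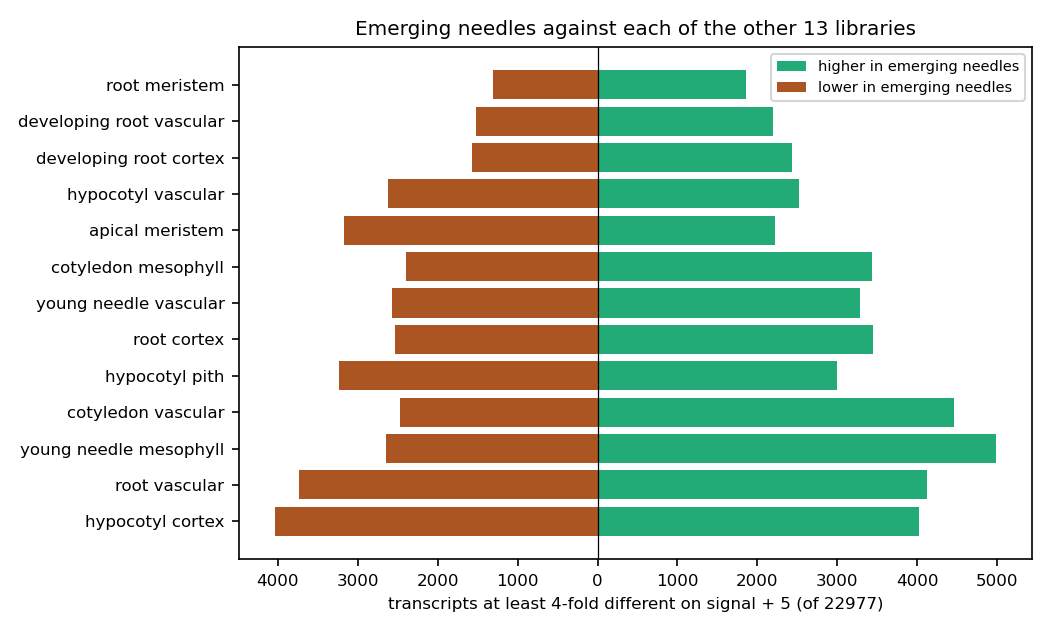
Number of transcripts (of 22977) at least 4-fold higher (right) or lower (left) in emerging needles than in each of the other 13 libraries, ordered by their sum. The root meristem is at the top with 1862 and 1311, and hypocotyl cortex at the bottom with 4022 and 4035.

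Presence and absence by reads gave a view that does not use the normalisation factors, though it depends on the depth and composition of each library. Of 7079 transcripts with at least 25 reads in emerging needles, 494 had no reads in the apical meristem, 2178 had none in young needle vascular tissue and 3424 had none in mesophyll. A total of 1524 had none in both young needle tissues, 241 had none in any of these 3 libraries and 45 had none in the other 13. Over all 16541 transcripts compared in the leaf series, 3587 (21.7%) had none in both young needle tissues, so the 1524 of 7079 lay near that share. Of the 16541, 2251 had none in the apical meristem and 3383 none in emerging needles. Conversely, of 1545 transcripts with at least 25 reads in both young needle tissues, 48 had no reads in emerging needles, 61 had none in the apical meristem and 15 had none in either. This choice needed reads in both young needle libraries, so its counts are not like for like with those above. A library without reads allows up to 3 reads at this depth, so absence means a value of at most 4.40 in mesophyll and at most 2.30 in young needle vascular tissue.

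The comparison with young needles was set beside that of other young and mature tissues. Against both young needle tissues, 3022 of 14443 transcripts were at least 4-fold higher in the apical meristem (20.9%) and 480 at least 4-fold lower (3.32%). That comparison shares both young needle libraries with the one of emerging needles, so it is not a separate case. Against both cotyledon tissues, 2630 of 13686 transcripts were higher in emerging needles (19.2%) and 560 lower (4.09%), a comparison that shares the emerging needle library. The root meristem was above both developing root tissues for 290 of 10901 transcripts (2.66%) and below both for 178 (1.63%). It was above both root cortex and root vascular tissue for 1197 of 13042 (9.18%) and below both for 945 (7.25%).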

How the data were processed

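The authors deposited 1 table with a normalised signal for 23493 transcripts in 14 libraries, made with FastQC, BWA and edgeR per the submitters' processing notes; versions, reference assembly and filter are not given in the sources used here. In every column 100% of the deposited values were whole multiples, within 0.001, of the smallest, so whole reads were recovered. The signal turned out to be CPM scaled by trimmed-mean normalisation factors, which edgeR 4.0.16 in R 4.3.3 returned within a relative 5.22e-10. Columns were matched to tissues by the codes in the labels.

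Values were compared as log2(value + 5), which understates the change of low transcripts, among transcripts reaching 10 in any library compared, with a 4-fold rule (Python 3.11.15, NumPy 2.4.6, pandas 2.3.3, SciPy 1.17.1). Named transcripts had the largest fold (over several libraries, the largest smallest fold) among those called with at least 25 reads in the higher libraries, 2 per direction or pattern, besides the 2 most abundant of each leaf library. The libraries and rules were chosen with earlier results of these data known. Alternatives changed the added value, fold, scaling, filter, minimum of reads and the young needle reference. Counting intervals treat reads as independent molecules, which amplified cDNA reads are not. The lists of named gene families and marker genes considered could not be used, since the identifiers carry no names.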

Additional observations from a re-analysis of the deposited data

Results flagged for a closer look

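The emerging needle level moved in opposite directions towards the young needle tissues for a small set of transcripts. In 151 it was at least 4-fold below mesophyll and at least 4-fold above vascular tissue, and in 101 it was above mesophyll and below vascular tissue. The difference between the tissues was not tested, because each was 1 library. With quantile normalisation the 2 sets together fell from 252 to 156. No set of 4 or more replicate libraries existed in which a single library could be screened against the others.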

How the results depend on the processing

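No paired analysis was possible because each tissue was 1 library and the labels give no replicate numbers. Counts depended most on the rule of size. With 25 added in place of 5, emerging needles were above both young needle tissues for 244 and below both for 70, above the apical meristem for 297 and below it for 1114, with 60 peaks, 13 troughs, 2 stepwise falls, 0 stepwise rises, 20 opposite in the young needle tissues and 575 different from the root meristem. With 1 added, 652 were below both young needle tissues and 3662 above the apical meristem, with 1643 peaks, 271 troughs, 190 falls, 18 rises, 1028 opposite and 6413 different from the root meristem. At 2-fold the numbers were 4107 above and 889 below both young needle tissues, 5086 above and 5264 below the apical meristem, 2611 peaks, 408 troughs, 342 falls, 84 rises, 1623 opposite and 8290 different from the root meristem. At 8-fold they were 786, 91, 463, 1567, 134, 11, 2, 0, 20 and 790 in the same order.

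Without the normalisation factors, 4863 were above and 2006 below the apical meristem, with 2229 peaks and 43 troughs. Quantile normalisation left 156 opposite. A filter at 25 left 1681 above both young needle tissues. Emerging needles were above mesophyll alone for 4986 and below it for 2643, and below vascular tissue alone for 2572. The mean of both young needle tissues gave 1496 below, 252 troughs, 67 falls and 23 rises. edgeR's quasi-likelihood test treated both young needle libraries as if replicates and assumed the lone emerging needle library to vary like them. It cannot decide which transcripts differ, because its spread is the difference between the young needle tissues. In all settings of the size rule more transcripts were above than below both young needle tissues. Against each young needle tissue alone the balance turned with 25 added. Taking a share of hypocotyl cortex reads off the apical meristem was chosen after the data were seen, and moved no count by more than 1.5 times. It took off at most 4.87% of apical meristem reads and no root cortex reads, and counts without the apical meristem could not move. It therefore cannot decide how far the shared reads bear on the counts. A value of 15, the lowest that could be called against 0, rested on 11 reads in mesophyll and 12 in the apical meristem.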

Other observations

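Transcripts higher in emerging needles than in the apical meristem were compared between the cotyledon tissues, which had no part in choosing them. Of these 2219, 570 (25.7%) were at least 4-fold higher in cotyledon mesophyll than in cotyledon vascular tissue and 197 (8.88%) at least 4-fold lower, where 16.3% and 9.37% of all 16541 were. The higher share was not particular to them. It was 24.1% for transcripts above young needle vascular tissue only, 22.3% for those above mesophyll only and 19.1% for the 2543 above both, but 10.3% for the 29 stepwise falls. The 2219 made up 21.7% of cotyledon mesophyll reads (95% Wilson interval 21.6 to 21.8%), 14.93% of cotyledon vascular reads (14.85 to 15.004%) and 1.73% of hypocotyl cortex reads (1.70 to 1.77%). The choice of low apical meristem values favours the low hypocotyl cortex share, since all 237 abundant transcripts of that library had reads in the apical meristem. Of the 963 peak transcripts, 74.9% had identifiers starting isotig, against 65.0% of the 16541 compared. Other groups had raised shares too, at 72.2% of the 2543 above both young needle tissues and 71.5% of the 2150 below vascular tissue only, while the 74 troughs had 54.1%.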
